A study of Mus musculus with 96 samples.

Results

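The comparison described here is between 2 groups of wild-type (WT) mice aged 10 months that differ in the *Htt* knock-in line they were bred from. The members were taken from the sample titles, as WT mice of 10 months whose title ends in Q50 or in Q20, and each library was found in the count table through its description. This gave 16 of the 96 libraries of the series, 8 from the Q50 line and 8 from the Q20 line, each with 4 females and 4 males. All 16 mice carried 2 normal *Htt* alleles and no CAG knock-in allele. The labels give the strain as C57BL/6 for both groups, and the methods of the study describe crosses of heterozygous males with C57BL/6J females. The housing labels place WT mice of each line with WT and heterozygous mice of that line, and if the labels hold, line, litter and cage cannot be told apart. The methods state that no more than 1 animal per sex and genotype came from a litter, which places the 4 mice of a sex and group in separate litters. Which of these animals shared a cage is not given in the labels.

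The series holds 12 groups of 8, namely Q20, Q50, Q92 and Q140 knock-in mice (named by CAG repeat length) and WT mice from the Q20 and Q50 lines, at 6 and at 10 months of age. Small RNA was sequenced from the cortex, and reads were counted over microRNA stem-loops. The WT mice serve as controls for the knock-in mice, so a difference between the WT of separate lines shows how far nominally identical controls differ.

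MicroRNAs are short RNAs cut from hairpin precursors, the stem-loops, and they lower the stability or translation of messenger RNAs that they pair with. In the cortex a small number of abundant microRNAs supplies most of the reads, and many others are present at low levels or come from a minor cell type. Expanded CAG repeats in *Htt* cause Huntington's disease, and the heterozygous knock-in mice carry 1 *Htt* allele with a CAG repeat of a set length, which is in the normal range in Q20 mice. The deposited tables name stem-loops by miRBase accession and do not pair accessions with microRNA names. Stem-loops are therefore given by accession, with no role, sequence or position, and at most 2 are named in each direction. For the same reason the cortex label could not be checked against named markers.

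Library totals ranged from 5061914 to 9461827 estimated counts in the Q50 line (median 5775041) and from 5614560 to 12142170 in the Q20 line (median 7288098). The log2 totals did not differ past the threshold between the lines (two-sided exact permutation test, p = 0.164, n = 8 and 8). Of 1187 stem-loops, 230 had no count in any of the 16 libraries, and a library had a count for 688 to 775 of them. The library descriptions carry a field of value L2 or L3, whose meaning the labels do not state, and which was used as a batch term. It was L2 for 4 and L3 for 4 libraries of the Q50 line, and L2 for 5 and L3 for 3 of the Q20 line. 1 library, male M1 of the Q50 line, fell below the connectivity limit (Z = -5.54) and was left out of the fits, which used 7 against 8 libraries. The next lowest, male M2 of the Q20 line, was at Z = -4.46 and was kept.

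WT cortex of the 2 lines differed in few stem-loops at the threshold used, and by small amounts in the abundant ones. Of 416 stem-loops tested with edgeR's quasi-likelihood test, 2 were higher in the Q50 line at a false discovery rate (FDR, Benjamini-Hochberg) under 0.05, which is 0.481% of those tested. None was lower (0 of 416, or 0%). At an unadjusted p under 0.05, 39 stem-loops were higher (9.38%) and 29 lower (6.97%). DESeq2's Wald test on the same 15 libraries called 7 higher and 10 lower, so the count depended on the tool. No stem-loop separated the lines without overlap, either over the 15 libraries of the fit or over all 16 (0 of 416, or 0%, in each direction). The differences were centred near 0, with a median log2 difference of 0.01 (Q50 line minus Q20 line throughout), 230 stem-loops above 0 and 186 below.

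The estimated differences were larger at lower abundance, and so were their errors. The 96 stem-loops at 1000 CPM (a stem-loop's counts scaled to a common library total) or more held 95.4% of the counts, and none differed by more than 0.5 on the log2 scale. Their differences ran from -0.16 to 0.38 with a median size of 0.06, against a median standard error (SE) of 0.06. For 92 of these 96, or 95.8%, the 95% interval of the difference lay within 0.5 on the log2 scale (1.41-fold) in either direction. Of the 217 stem-loops between 10 and 1000 CPM, 10 differed by more than 0.5 and 3 by more than 1, and the interval lay within the same limit for 84.3%. Among those below 10 CPM, 13 differed by more than 0.5, and the interval lay within the limit for 41 stem-loops (39.8%). The median size in that class was 0.14 against a median SE of 0.18, so that a difference of 0.5 was often not detectable at this depth.

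**Figure D1:**
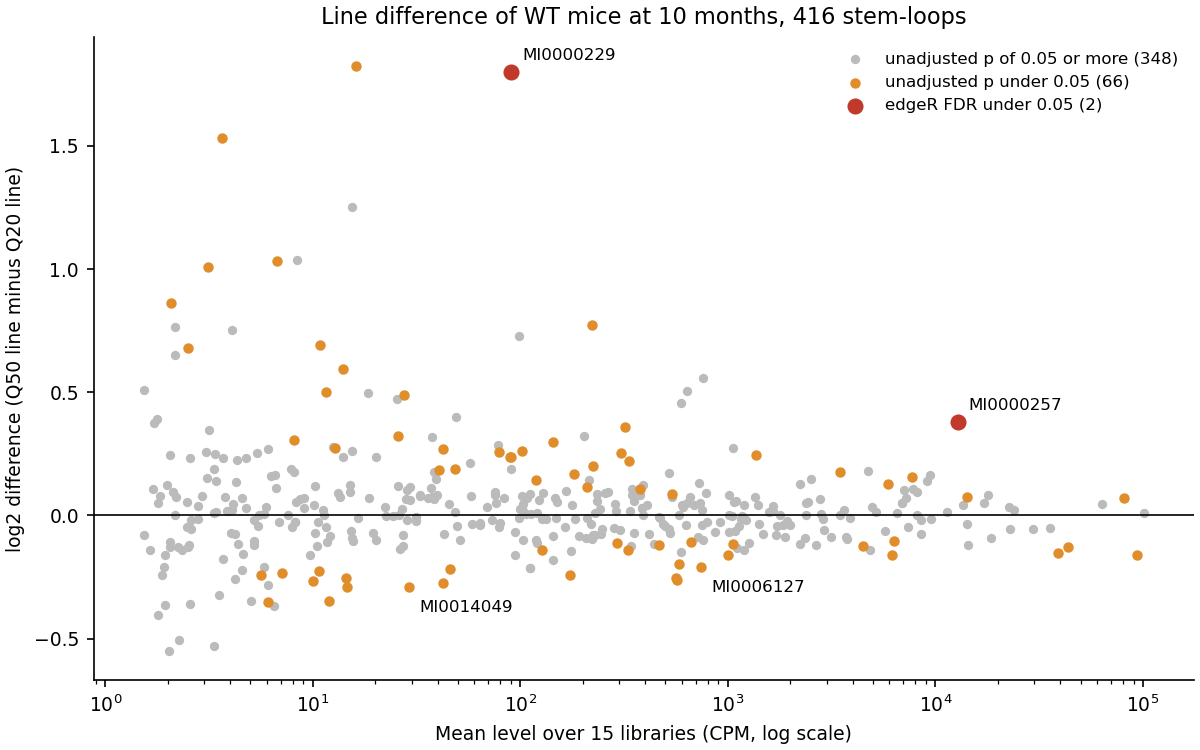
Log2 difference between the WT groups at 10 months (Q50 line minus Q20 line, vertical axis) against the mean level in CPM (horizontal axis, log scale), 1 point per stem-loop tested. The 2 red points, MI0000257 and MI0000229, passed an FDR of 0.05, and no stem-loop at 1000 CPM or more lay beyond 0.5 in either direction.

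Sex and the L field were terms of the same fit. Between males and females, 0 of 416 stem-loops passed the FDR (edgeR, 28 at an unadjusted p under 0.05). Between L3 and L2, 2 passed (0.481%), with 20 at an unadjusted p under 0.05. The count for line at an unadjusted p under 0.05 was 68. The first principal component of the 16 libraries (36.8% of the variance) had an R2 of 0.207 with line, 0.0840 with the L field and 0.00321 with sex, each regressed alone. Its R2 with the level of the co-varying set described below was 0.878. The third component (10.8% of the variance) had an R2 of 0.640 with the L field and 0.220 with line. The spread between libraries of a line differed by class. In the abundant class the median coefficient of variation (CV) over stem-loops was 8.25% in the 7 kept libraries of the Q50 line and 6.48% in the 8 of the Q20 line, and it was larger in the Q50 line for 67 of 96 stem-loops. Between 10 and 1000 CPM the medians were 11.2% and 8.68%, with 147 of 217 larger in the Q50 line. Below 10 CPM the medians were 23.6% and 22.9%, with 58 larger in the Q50 line.

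MI0000257 was the abundant stem-loop that rose. It took 1.29% of the counts of the 16 libraries and ranked 15th of all stem-loops by FPKM, the length-scaled value. Its level in the Q50 line was 12267 CPM in the lowest library, 14438 at the median and 16941 in the highest, and in the Q20 line it was 9557, 11733 and 13489 CPM. The groups overlapped, but 6 of 8 libraries of the Q50 line lay above every library of the Q20 line, and 6 of 8 of the Q20 line lay below every library of the Q50 line. The log2 difference was 0.38 ± 0.07 (SE), or 1.30-fold (95% interval 1.16 to 1.45), with FDR 0.0288 by edgeR. These levels rested on 58775 to 162062 counts a library, so that counting error was small beside the spread between animals. The excluded male M1 was at 13995 CPM, within the range of its line. The difference was 0.34 among L2 libraries and 0.36 among L3 libraries.

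The position of this call near the threshold made it depend on single libraries. It ended when any 1 of 10 libraries was left out, namely F1, F2, F3, M2, M3 or M4 of the Q20 line and F1, F3, M2 or M4 of the Q50 line, with edgeR FDR from 0.0540 to 0.144. The log2 difference itself stayed between 0.30 and 0.43 over all 15 omissions.

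MI0000229 was the other stem-loop higher in the Q50 line, and it differed from MI0000257 in abundance, size and spread. It took 0.00911% of the counts and ranked 196th by FPKM. In the Q50 line its level was 45.7 CPM in the lowest library, 155 at the median and 245 in the highest. In the Q20 line the lowest, median and highest were 33.3, 39.8 and 51.4 CPM. Every library of the Q20 line was low, whereas 7 of 8 of the Q50 line lay above all of them and female F2 of the Q50 line lay among them. Within the Q50 line the libraries spread over the whole range, with F4, M2 and M3 at 111, 120 and 100.5 CPM, F1 at 191, and F3, M1 and M4 at 245, 216 and 219. The CV was 45.5% over the 8 libraries of the Q50 line and 15.1% in the Q20 line. The log2 difference was 1.80 ± 0.33 (SE), or 3.48-fold (95% interval 2.11 to 5.74), with FDR 0.0288 by edgeR. Counts behind these values ran from 194 to 1350 a library. It was 1.22 among L2 and 2.06 among L3 libraries of the fit, and the excluded male M1, at 216 CPM, was on the high side.

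The call of MI0000229 too ended when single libraries were left out. Its FDR was often the same as that of MI0000257, for example 0.144 for both without F3 of the Q20 line (edgeR). That held for F1, F2, F3, F4, M2, M3 or M4 of the Q20 line and F1, F3, F4, M2 or M4 of the Q50 line, 12 in all, with edgeR FDR from 0.0525 to 0.144. The log2 difference stayed between 1.62 and 2.01. Without female F2 of the Q50 line, the low library of that line, it was 2.01 with FDR 0.00164.

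**Figure D2:**
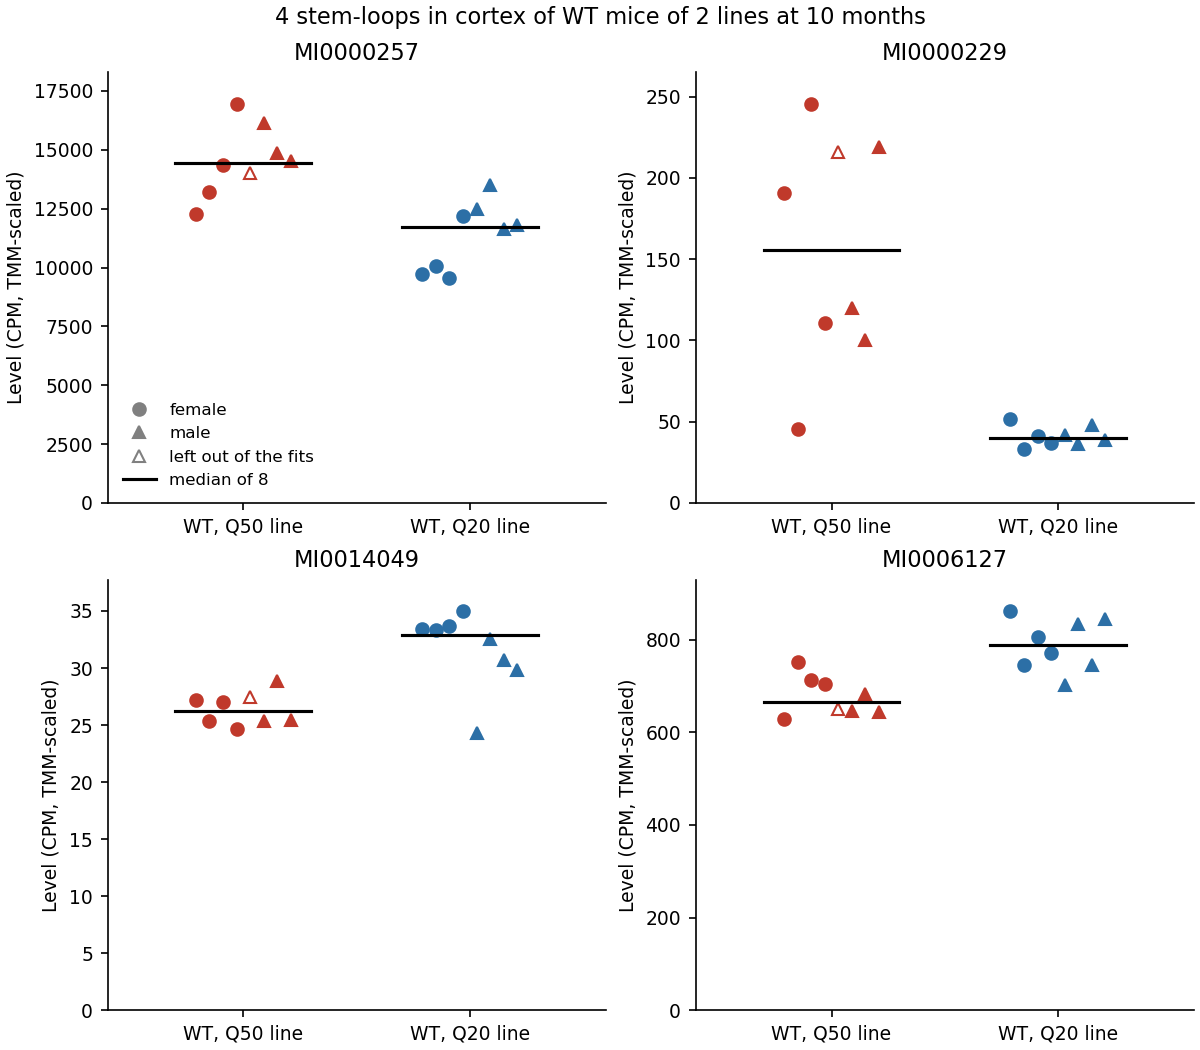
Level in CPM (vertical axis, from 0) of 4 stem-loops in each WT library of the Q50 line (red) and the Q20 line (blue), with circles for females, triangles for males, an open triangle for the library left out of the fits and a line at the median of 8. The 8 Q20-line libraries sit between 33.3 and 51.4 CPM for MI0000229, and 7 of 8 Q50-line libraries lie above them, while the groups overlap for each of the 4.

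The 2 stem-loops with the smallest p among those lower in the Q50 line did not pass the FDR. MI0014049 was at 24.7, 26.2 and 28.9 CPM (lowest, median, highest) in the Q50 line and at 24.3, 32.9 and 35 CPM in the Q20 line. 7 of 8 libraries of the Q20 line lay above the whole Q50 line, and male M1 of the Q20 line, at 24.3 CPM, lay below it. The log2 difference was -0.29 ± 0.07 with FDR 0.0605 by edgeR. Without that male it was -0.32 with FDR 0.0257, the only omission of 15 that passed. Over the other omissions the edgeR FDR ran from 0.0529 to 0.144. MI0006127 was at 629, 666 and 753 CPM in the Q50 line and at 703, 788 and 861 CPM in the Q20 line. 5 of 8 libraries of each line lay outside the range of the other. The log2 difference was -0.21 ± 0.05 with FDR 0.0911 by edgeR. Without female F2 of the Q50 line it was -0.24 with FDR 0.0406, again the only omission of 15 that passed. Over the other omissions the edgeR FDR ran from 0.0613 to 0.204.

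Whether the line difference depended on sex was tested as an interaction. None of 416 stem-loops passed in either direction (0%, edgeR FDR under 0.05), 14 had an unadjusted p under 0.05, and DESeq2's Wald test also called 0. With 4 against 4 females and 3 against 4 males, MI0000257 differed by 0.48 ± 0.10 in females (edgeR FDR 0.0434) and by 0.23 ± 0.12 in males (FDR 0.996), a difference between the sexes of -0.25 ± 0.16 that did not pass (FDR 0.977). MI0000229 differed by 1.90 ± 0.44 in females and 1.64 ± 0.56 in males, with FDR 0.113 and 0.996, and the difference between the sexes was -0.25 ± 0.71 (FDR 0.977).

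The WT mice of 6 months gave the same line comparison in other animals. Across the 416 stem-loops the line differences at the 2 ages had a Pearson correlation of -0.36 and a Spearman correlation of -0.12, and 201 (48.3%) had the same sign. Of the 39 stem-loops higher at 10 months at an unadjusted p under 0.05, 13 were also above 0 at 6 months, and of the 29 lower, 14 were also below 0. Stem-loops of 1 library are not independent replicates, so these values describe the tables. Without the co-varying set described below, the Pearson correlation was -0.24 and the Spearman correlation -0.09 over 409 stem-loops. Against the line difference between Q50 and Q20 mice at 10 months the correlations were -0.09 (Pearson) and 0.13 (Spearman) over 416 stem-loops, and 0.27 and 0.17 without the set, with the same sign for 219 of 416 (52.6%).

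The change of the line difference with age was also tested directly, with 6 WT libraries of the Q50 line and 7 of the Q20 line kept at 6 months. Of 435 stem-loops, 8 had a line difference that was more positive at 10 than at 6 months (1.84%, edgeR FDR under 0.05), and 3 had one that was more negative (0.69%). 71 had an unadjusted p under 0.05. All 11 had line differences of opposite sign at the 2 ages, which choosing stem-loops by a large change favours. None belonged to the co-varying set. With all 32 WT libraries the count was 17, and DESeq2's Wald test gave 22.

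MI0000229 had the smallest FDR of these 11. Its line difference was 1.80 at 10 months and -0.53 ± 0.26 at 6 months (edgeR FDR 0.415), and the change with age was 2.33 ± 0.38 (FDR 0.00133). On a scale common to all 96 libraries, WT mice of the Q20 line were at 139 to 196 CPM at 6 months (median 170) and at 32.1 to 50.2 CPM at 10 months (median 38.0). The ages did not overlap in this line, with a log2 difference between 10 and 6 months of -2.07 ± 0.10 (two-sided exact permutation test, p = 0.000155, the smallest it can give for 8 against 8, and adjusted p = 0.000622 over 8 tests). Among the L2 libraries alone (5 at each age) the difference was -1.99, again without overlap, though L2 did not separate age from library batch (below). WT mice of the Q50 line were at 91.7 to 163 CPM at 6 months (median 127) and at 42.8 to 234 CPM at 10 months (median 151). Their log2 difference between the ages was 0.11 ± 0.32 (exact permutation p = 0.749). Of the 4 WT groups, the older mice of the Q20 line had the lowest median and the other 3 had medians above 100 CPM.

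MI0000257 was lower at 10 than at 6 months in both lines. Its log2 difference between the ages was -0.37 ± 0.11 in the Q50 line and -0.46 ± 0.12 in the Q20 line (exact permutation adjusted p = 0.00684 and 0.00539 over the same 8 tests). Its line difference at 6 months was 0.32 ± 0.12 (edgeR FDR 0.229), and the change of that difference with age was 0.06 ± 0.16 (FDR 0.881). MI0006127 was higher at 10 than at 6 months in both lines, by 0.22 ± 0.10 in the Q50 line and 0.27 ± 0.04 in the Q20 line (adjusted p = 0.0264 and 0.000622). Its line difference at 6 months was -0.16 ± 0.09 (edgeR FDR 0.459). For MI0014049 the line difference at 6 months was 0.07 ± 0.08, and its change with age, -0.37 ± 0.11, missed the threshold (edgeR FDR 0.0719) but passed with DESeq2 size factors in edgeR (FDR 0.0487) and with DESeq2's Wald test (FDR 0.0370). The L values of the 2 ages overlapped only in L2. The numbers that open the library descriptions lay in separate ranges at the 2 ages, within L2 too. Age and any batch that follows these numbers therefore cannot be told apart, in L2 or outside it.

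The knock-in mice of the same lines allowed a further comparison of line, in mice that also differ in CAG length. Together with the WT mice of 6 months they gave 3 pairs of groups whose libraries had no part in the calls at 10 months. The housing labels and the methods allow knock-in and WT mice of a line to share cages and litters. The knock-in pair at 10 months was therefore not independent of the WT pair in this respect. The 4 named stem-loops were compared in each of the 3 pairs, a choice made after the group levels had been seen, and p-values were adjusted over these 12 tests. MI0000257 was higher on the Q50 side in all 3 pairs. The log2 difference was 0.41 ± 0.07 between Q50 and Q20 mice at 10 months (two-sided exact permutation p = 0.000466, adjusted p = 0.00559), where 8 of 8 Q50 mice lay above the median of the Q20 mice. It was 0.29 ± 0.12 between Q50 and Q20 mice at 6 months (adjusted p = 0.0988) and 0.27 ± 0.13 between the WT mice at 6 months (adjusted p = 0.157), and these 2 did not pass. The values of the pairs are mean differences over all 8 libraries of each group. For the WT mice at 6 months it was 0.33 over the kept libraries, and edgeR gave 0.32 on these. Within an L value it ranged from 0.40 to 0.49 for the knock-in mice at 10 months, and from 0.00 to 0.46 for those at 6 months. The permutation tests did not adjust for sex or the L field. In the knock-in mice at 10 months the L field was uneven, with 2 Q50 mice in L1 and most Q20 but few Q50 mice in L2. The values within an L value at that age therefore rested on few libraries on 1 side.

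The median level of MI0000257 at 10 months was 11253 CPM in the WT and 9554 in the knock-in mice of the Q20 line, and 14166 CPM in the WT and 13133 in the knock-in mice of the Q50 line. At 6 months the corresponding medians were 15374 and 15488, and 18067 and 17966 CPM. Both groups of the Q50 line were thus above both groups of the Q20 line at each age, by their medians. The medians of Q92 and Q140 mice were 11744 and 13116.5 CPM at 10 months, and 15502 and 14583 CPM at 6 months.

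MI0000229 did not repeat its difference in the other pairs. It was 0.13 ± 0.41 between Q50 and Q20 mice at 10 months (exact permutation adjusted p = 0.815), -0.90 ± 0.35 between those at 6 months (adjusted p = 0.0988), and -0.42 ± 0.13 between the WT mice at 6 months (adjusted p = 0.0513). Q20 mice of 10 months were at 40.2 to 241 CPM with a median of 155. The lowest medians of the 12 groups were 38.0 CPM in the older WT mice of the Q20 line, 40.4 in Q92 mice at 6 months and 46.3 in Q140 mice at 6 months. The highest, 170 CPM, was that of the WT mice of the same line at 6 months. MI0014049 and MI0006127 differed by -0.11 to 0.07 in the knock-in pairs, with adjusted p from 0.391 to 0.652.

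**Figure D3:**
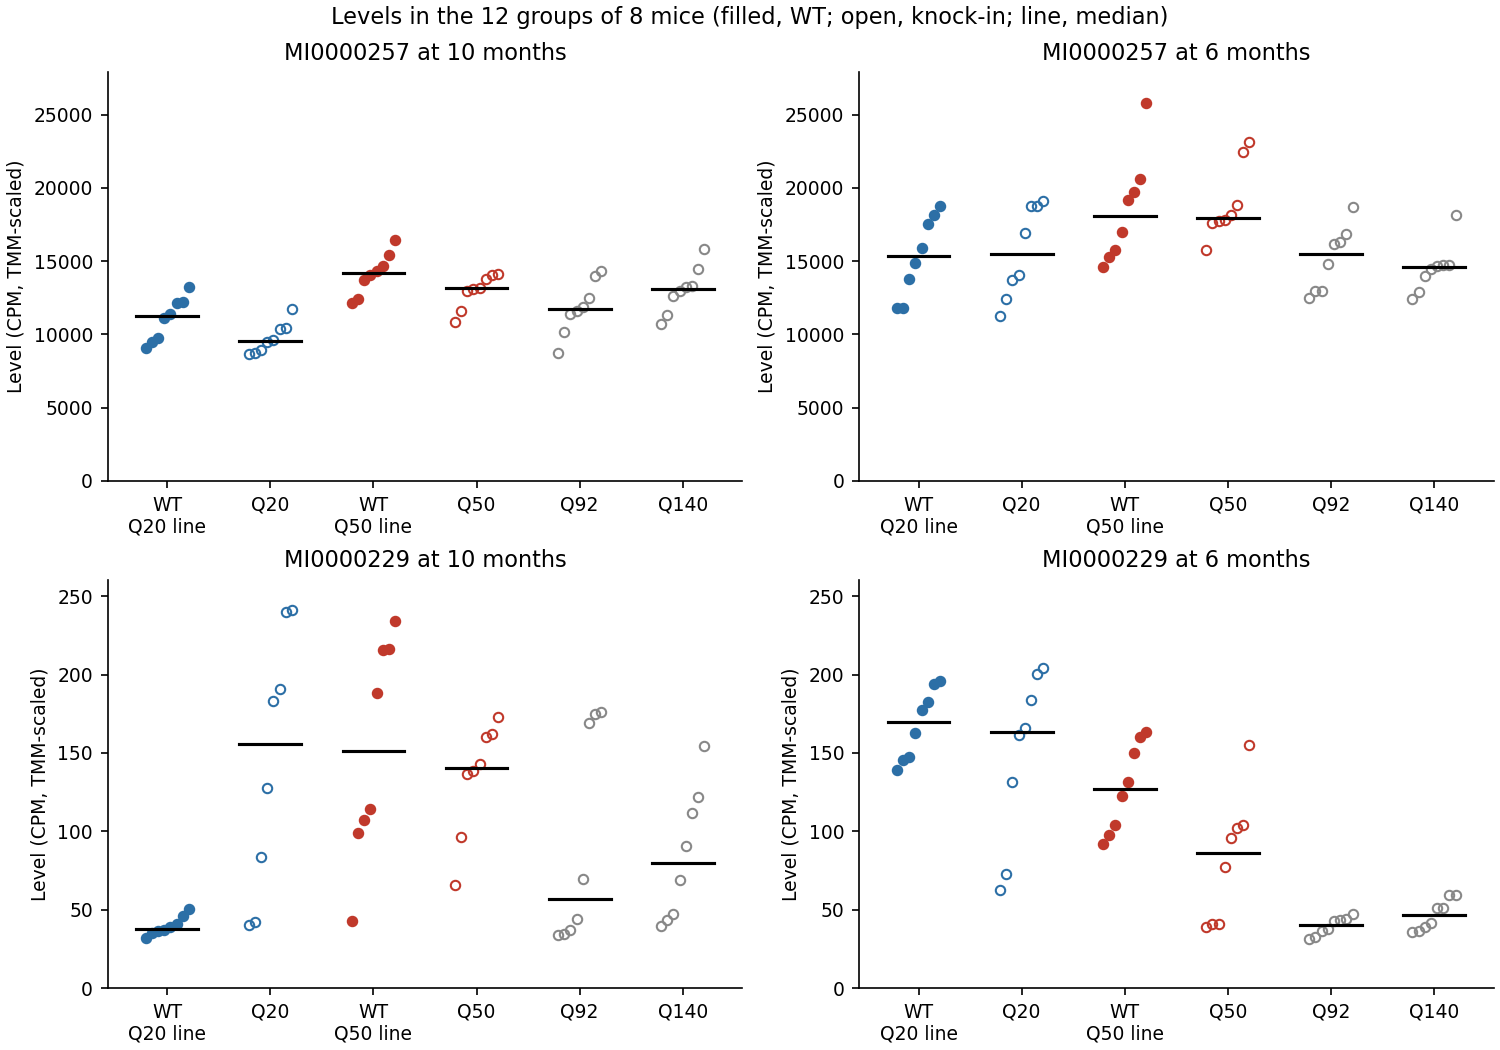
Level in CPM (vertical axis, from 0, scaled over all 96 libraries) of MI0000257 (top) and MI0000229 (bottom) in the 12 groups of 8 mice, at 10 months (left) and 6 months (right), with filled points for WT, open points for knock-in mice and a line at the median. MI0000257 has higher medians in the 2 groups of the Q50 line than in the 2 of the Q20 line at both ages, and MI0000229 is between 32.1 and 50.2 CPM in all 8 WT mice of the Q20 line at 10 months.

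**Figure D4:**
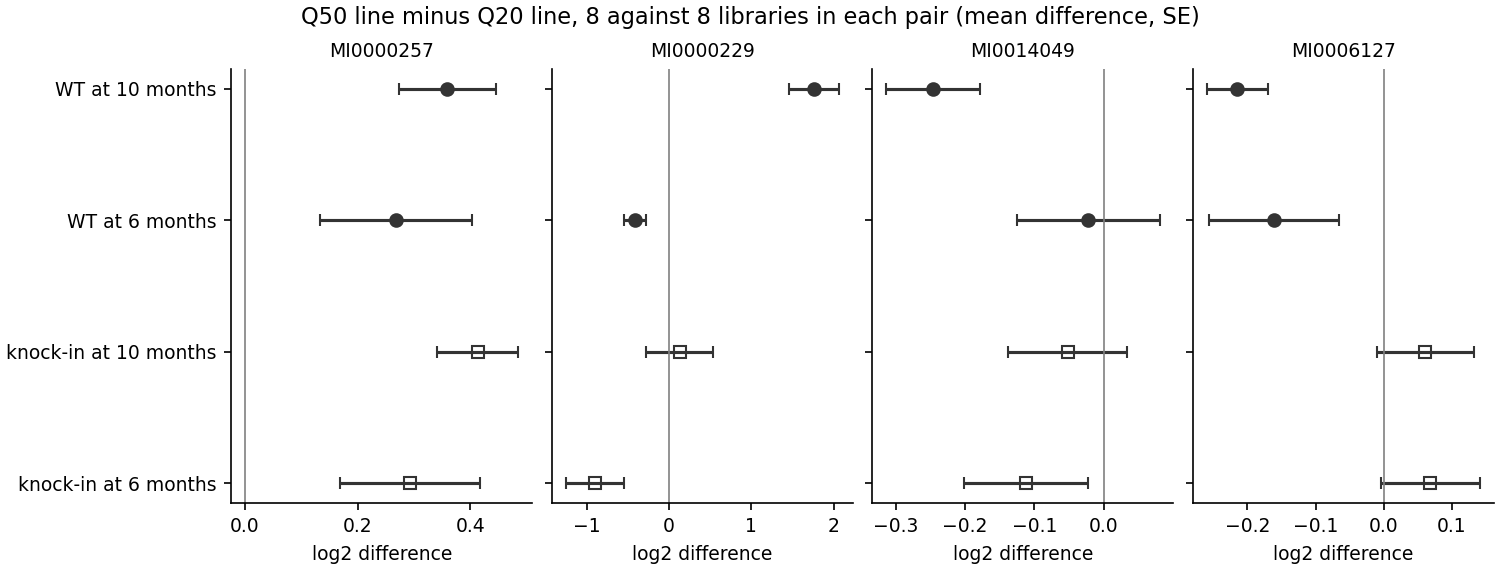
Log2 difference (Q50 line minus Q20 line, horizontal axis, own range in each panel) of the 4 named stem-loops in 4 pairs of groups of 8 libraries, with bars for 1 SE. MI0000257 is above 0 in all 4 pairs, from 0.27 to 0.41, and MI0000229 is at 1.76 in WT at 10 months and at -0.90 in knock-in mice at 6 months.

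A set of 8 stem-loops that varied together was defined from the 80 libraries outside the comparison, as those with the largest loadings on their first principal component (48.9% of the variance of 310 stem-loops). Its summed level was 514 CPM in the lowest library of the Q50 line, 902 at the median and 19040 in the highest, and 455, 800 and 1308 CPM in the Q20 line. 2 libraries of the Q50 line stood above every library of the Q20 line, namely the excluded male M1 at 19040 CPM and female F1 at 4195 CPM, and the other 6 lay within its range. Over the other 80 libraries the summed level ran from 280 to 63183 CPM.

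The log2 difference in the summed level was 0.89 ± 0.63 over the 16 libraries (two-sided exact permutation test, p = 0.208), and without male M1 it was 0.37 (p = 0.404). It was 1.95 among the L2 libraries (exact permutation p = 0.0397), which hold both high libraries, and -0.20 among the L3 libraries (p = 0.543). Of the 8 members, 7 were tested singly. None passed the FDR or an unadjusted p under 0.05, and 6 were above 0, against 230 of 416 over all stem-loops. The members' median log2 difference was 0.56 (from -0.03 to 1.25), against 0.01 over all stem-loops. Members were chosen because they vary together, so these are not separate results, and female F1 (4195 CPM for the set) was in the fits. The log2 level of the set had an R2 of 0.878 with the first component of the 16 libraries, and 6 of its members were among the 8 largest loadings. With the set's level as a covariate, MI0000257 kept its size at 0.38 (edgeR FDR 0.0549) and MI0000229 was at 1.75 (FDR 0.0549). The part of the set in the line difference was not tested further.

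**Figure D5:**
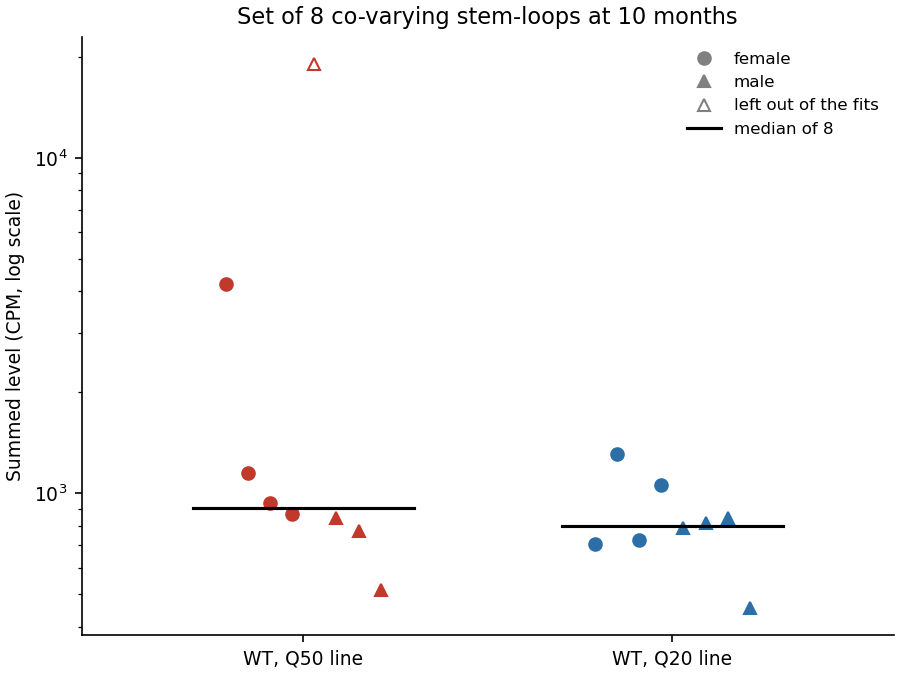
Summed level in CPM (vertical axis, log scale) of the 8 co-varying stem-loops in each WT library at 10 months, with circles for females, triangles for males, an open triangle for the library left out of the fits and a line at the median of 8. The medians are 902 CPM in the Q50 line and 800 in the Q20 line, and only male M1 (19040 CPM) and female F1 (4195 CPM) of the Q50 line stand above the Q20 line.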

How the data were processed

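Cortex small RNA of 16 WT libraries, of 96 in the series, was analysed from 2 deposited tables. According to the methods of the study, the authors clipped adapters, aligned reads to mm10 with STAR and counted with HTSeq. The submitters' processing notes name CASAVA 1.8.2, and no other tool version is given in the sources used here. In the first table the authors give estimated counts per stem-loop, not normalized, and these were rounded to whole numbers. How reads shared by near-identical stem-loops were divided is not stated. None of the 4 named stem-loops had fractional values in the 16 libraries. The authors' other deposited table holds FPKM values, used here only for length-scaled ranks.

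Libraries were screened as in the study, by connectivity after DESeq2's variance-stabilising transformation over the 48 libraries of an age, and those with Z under -5 (5 at each age) were left out. The authors also replaced outlying values of single stem-loops before testing, which was not done here. Counts were tested with edgeR 4.0.16 in R 4.3.3 (TMM, filterByExpr, robust quasi-likelihood, adjusted over all tested stem-loops by Benjamini-Hochberg), with sex and the L field as covariates. DESeq2 1.42.0 was an alternative. The scripts were tested on simulated data. Single values were compared by two-sided exact permutation tests on log2(CPM + 0.5). Unless stated, these used all 8 libraries of a group, including those left out of the fits, and no covariates. The WT CPM used TMM factors of the 16 libraries, and levels across groups those of all 96. The summed level of the set used library totals. The 95% intervals used 11 residual degrees of freedom. No 2 libraries of a group agreed within sampling noise (lowest chi-square per degree of freedom 33.8).

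The members and lists were chosen with earlier results of these data known. The naming rule was, by smallest p, the stem-loops past FDR 0.05, filled up where few passed. Because accessions could not be paired with names, it was reduced to 2 a direction, the fixed lists of microRNA names could not be applied, and the set of 8 co-varying stem-loops stood in for 1 of them. The comparisons within line by age and in the other 3 pairs of groups were added after the data had been seen. Alternatives were other libraries, scalings, filters, covariates, tools and a replicate block.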

Additional observations from a re-analysis of the deposited data

Results flagged for a closer look

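Among 12 checks for a library far from the others of its group (chance gives about 1 in 20), 1 was met: male M1 of the Q50 line had 19040 CPM of the co-varying set, and the nearest library had 4195 CPM.

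The line difference of MI0000229 differed between the ages by 2.33 on the log2 scale in the edgeR interaction test.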

How the results depend on the processing

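The count of 2 stem-loops became 5 with all 16 libraries kept, 17 with DESeq2's Wald test (7 higher, 10 lower), 4 without the L field, 0 under the set level covariate, and 0 to 8 with 1 library left out. It was 2 under DESeq2 size factors and 3 in 1 fit over all groups of 10 months, all higher, and 3 with a filter of 10 CPM (2 higher, 1 lower). With no filter it was 2 (1 higher, 1 lower), and MI0000229 had FDR 0.0537. Settings chosen after seeing the data gave 13 with all 16 libraries in DESeq2, 4 with all 16 and the set level as a covariate, and 2 without male M2 of the Q20 line and with all others. Over 29 settings each, of which 27 gave a test, MI0000257 stayed between 0.30 and 0.43 and lost its call in 11, and MI0000229 stayed between 1.22 and 2.06 and lost it in 15. No sign turned for the 4 named stem-loops. MI0014049 and MI0006127 passed in 4 settings each.

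With the replicate block the count was 1: MI0000257 was kept, and MI0000229 had FDR 0.0650. The replicate numbers did not pair the samples: over 8 pairs the correlation of deviations was -0.17 to 0.28, above 0.1 in 2, and 1 library correlated best with its own number.

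The line by age count of 11 became 17 with all libraries, 13 with DESeq2 size factors and 22 with DESeq2's Wald test. The line by sex count stayed at 0, with 12 to 31 stem-loops at an unadjusted p under 0.05. The set's log2 difference was 1.95 within L2 and -0.20 within L3, a split chosen after seeing the data, and 0.37 to 1.11 with 1 library left out. The causes were not tested. The median SE was 0.06 for stem-loops at 1000 CPM or more and 0.18 below 10 CPM.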
